A study of Rattus norvegicus with 16 samples.

Results

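The genes described here are the chemokines, the interleukins and their receptors in the infarct zone of rat hearts. They were taken by name: gene names that begin with Ccl, Cxcl, Ccr, Cxcr or Il followed by a digit, or with Cx3c, without Ccl19 and Ccl21, and with a mean level of at least 0.5 CPM over the 16 libraries. CPM are counts relative to the library total after TMM scaling. This scaling adjusts the totals so that most genes keep the same level. Of 17085 genes in the table, 119 had such a name and 58 of these reached the minimum. All 58 also passed the filter on low counts and were among the 11376 genes tested. The minimum used the measured levels, and 11 of the 58 had a mean under 0.5 CPM in Sham, so that their levels in the ligated groups brought them in. These were Ccl9, Ccl12, Ccl22, Ccl27, Cxcr5, Il1r2, Il7, Il10, Il17b, Il17re and Il20rb. Their choice and their tests against Sham used the same levels, so their differences from Sham are a description. The names just inside the minimum were Il17b with a mean of 0.544 CPM, Il27ra with 0.698 CPM and Cxcr6 with 0.704 CPM. The names just outside it were Ccl11 with 0.499 CPM, Il18r1 with 0.486 CPM and Il23a with 0.472 CPM.

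The samples were bulk RNA libraries from rat hearts, 4 in each of 4 groups. In MI_stiff and MI_soft the left anterior descending coronary artery was ligated and a stiff or a soft hydrogel was given. In MI the artery was ligated and no gel is named, and Sham hearts were the controls without ligation. Every library was labelled infarct zone, the Sham libraries included. The labels give no gel composition, dose, route, strain, sex, age or time after ligation, and the extraction text speaks of MI/R without saying what that means for these samples. Whether each library stems from its own animal is not stated, and p-values here refer to the spread among the libraries alone, part of which could be technical. Replicates of a group are given below in the order of their numbers.

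Chemokines are small secreted proteins that draw leukocytes along a gradient through receptors on the cell surface, and their CC, CXC and CX3C classes are named after the spacing of conserved cysteines. Interleukins act through paired receptor chains. The IL-1 and IL-18 receptors signal through Myd88 and NF-kB, while the receptors that share gp130 (Il6st) or the common gamma chain (Il2rg) signal through JAK kinases and STAT factors. After a coronary artery is closed, injured muscle and resident cells release such signals, neutrophils and monocytes enter the wound, and inhibitors such as the IL-1 receptor antagonist and IL-10 are known to limit the response while a scar forms.

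Library totals lay between 10940685 and 14456186 counts. The fewest genes with a count were found in MI 2 (10470), MI 3 (10958), MI 4 (11283) and MI_soft 4 (11785), against 12019 to 12820 in the other libraries. A count was found for 48 to 50 of the 58 members in MI 2, MI 3 and MI 4, against 55 to 58 in the others. MI 1 stood apart from the other MI libraries in this respect and in its immune markers. Results of comparisons with MI whose call was lost or gained, or whose called difference moved by over 1.5 times, without it are named below. The marker genes of the labelled tissue were present: the 6 cardiomyocyte markers summed to 8064 to 13740 CPM in MI_stiff, 9949 to 18510 CPM in MI_soft, 7848 to 13700 CPM in MI and 28040 to 41250 CPM in Sham. The 11 macrophage and monocyte markers with values, of 12 listed, summed to 631.2 to 2568 CPM in MI_stiff, 1634 to 5213 CPM in MI_soft, 504.8 to 1456 CPM in MI and 153.9 to 186.1 CPM in Sham. None of them was at 0 in every library. The lowest MI_stiff sum was that of MI_stiff 2, and the highest MI sum was that of MI 1. In bulk tissue, fewer cells of a type and less RNA per cell cannot be told apart, and the part of cell type composition in the results below was not tested.

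Together the 58 members made up more of the RNA in every ligated library than in any Sham library. Their summed level was 1263, 1058, 1230 and 1231 CPM in MI_stiff, 902.9, 1258, 888.4 and 1318 CPM in MI_soft, 1026, 1110, 956.2 and 947.5 CPM in MI and 643.5, 651.3, 667.5 and 639.6 CPM in Sham. Members were called at an adjusted p under 0.05 by the quasi-likelihood test of edgeR, adjusted by Benjamini-Hochberg over all tested genes. By this rule, 24 members rose and 1 fell in MI_stiff against Sham (43.1% of the members, against 21.2% of all tested genes). In MI_soft, 26 rose and 1 fell (46.6%, against 26.1% of all tested genes), and in MI, 25 rose and 2 fell (46.6%, against 36.6%). Of all tested genes, 12.7% rose in MI_stiff, 16.4% in MI_soft and 20.2% in MI. The median log2 difference of the members was 1.14 in MI_stiff, 1.37 in MI_soft and 1.19 in MI, and the median of all tested genes lay between 0.01 and 0.06. Because the choice of members favoured genes high in the ligated groups, these counts and medians are a description. The 3 comparisons share the Sham libraries.

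**Figure D1:**
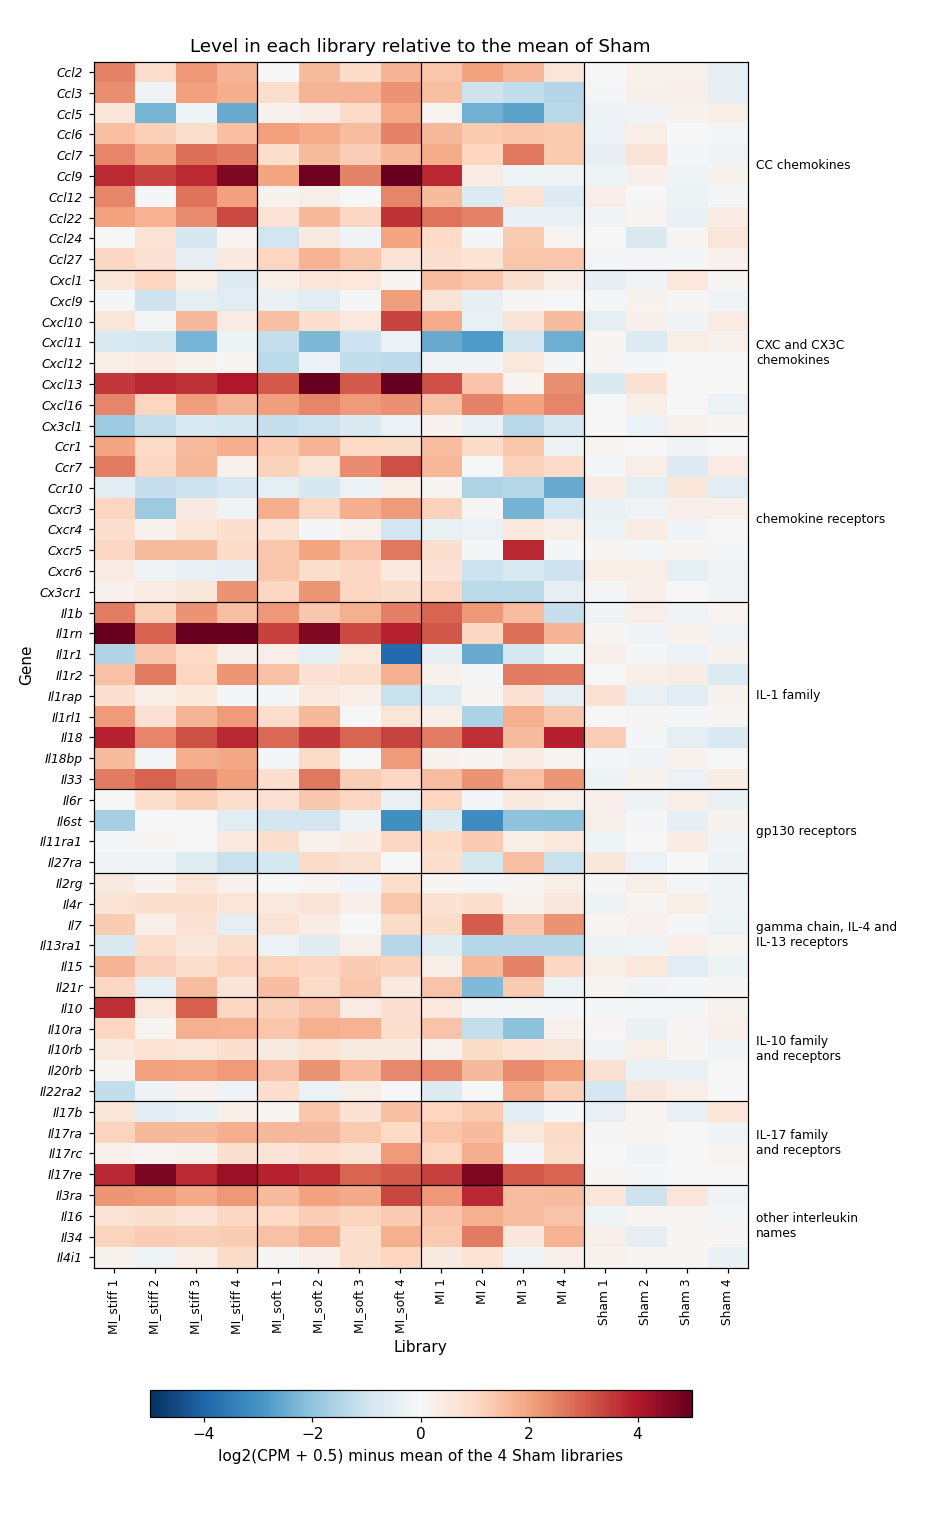
Each cell gives log2(CPM + 0.5) of 1 of the 58 members in 1 of the 16 libraries minus the mean of the 4 Sham libraries, with red above and blue below that mean and colours saturated at 5 in either direction; rows are grouped by role. Il1rn, Il17re, Il18 and Cxcl13 are red across most ligated libraries, Ccl9 is deep red in MI 1 alone of the MI libraries, and Cxcl11 and Cx3cl1 are mostly blue.

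Per length of transcript, Cxcl12, Cxcl16, Il11ra1, Cxcl13 and Ccl5 had the highest mean levels over the 16 libraries, at 92.4, 54.8, 47.0, 45.1 and 26.4 TPM. TPM is a relative abundance of transcripts that is scaled for their length. Cxcl12 averaged 131 ± 40.2 TPM in MI_stiff, 62.1 ± 34.6 TPM in MI_soft, 107 ± 112 TPM in MI, and 69.3 ± 14.9 TPM in Sham (SD, n = 4 each). MI 1 alone had 274 TPM of Cxcl12, and the other 3 MI libraries averaged 51.4 ± 15.4 TPM. Cxcl16 averaged 66.5 ± 22.8 TPM in MI_stiff, 74.5 ± 12.8 TPM in MI_soft, 63.9 ± 7.11 TPM in MI, and 14.2 ± 1.52 TPM in Sham. Cxcl13 averaged 64.4 ± 21.2 TPM in MI_stiff, 92.3 ± 69.03 TPM in MI_soft, 20.3 ± 22.01 TPM in MI, and 3.53 ± 1.15 TPM in Sham. The order differed between groups: Cxcl12 had the highest mean in MI_stiff and Sham, Cxcl13 had it in MI_soft, where the libraries of Cxcl13, Cxcl16 and Cxcl12 overlapped, and in MI the mean of Cxcl12 was the highest with MI 1 and below the 65.8 ± 7.50 TPM of Cxcl16 without it. In Sham, Cxcl12 was followed by Il11ra1 with 31.9 ± 7.18 TPM and Ccl5 with 24.6 ± 6.85 TPM, whose libraries overlapped.

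Of the 10 CC chemokines, which mainly attract monocytes and lymphocytes, 5 rose in MI_stiff, 6 in MI_soft and 5 in MI against Sham, and none fell. These are 50%, 60% and 50% called. Such class shares, here and below, stand against 21.2%, 26.1% and 36.6% of all tested genes in MI_stiff, MI_soft and MI. They too are a description, because the choice of members favoured genes high in the ligated groups. Ccl6, a rodent chemokine that binds Ccr1 in mouse, had 38.4, 31.5, 24.97 and 39.02 CPM in MI_stiff, 57.8, 49.7, 39.7 and 77.8 CPM in MI_soft, 42.2, 33.5, 35.7 and 33.4 CPM in MI and 10.7, 16.9, 13.7 and 12.9 CPM in Sham. Every ligated library was above every Sham library, and the 4 MI_soft libraries were all above the 4 MI_stiff libraries. The log2 difference of Ccl6 from Sham was 1.305 ± 0.23 in MI_stiff (adjusted p = 0.00059), 2.05 ± 0.23 in MI_soft (adjusted p = 8.79e-06), and 1.42 ± 0.23 in MI (adjusted p = 0.000166). Ccl7, a monocyte attractant, had 12.6, 8.53, 15.97 and 13.97 CPM in MI_stiff, 3.96, 6.77, 5.22 and 7.11 CPM in MI_soft, 8.36, 4.61, 14.5 and 5.56 CPM in MI and 1.32, 3.31, 1.79 and 1.66 CPM in Sham. Its ligated libraries also lay above all Sham libraries, with log2 differences from Sham of 2.66 ± 0.41 in MI_stiff (adjusted p = 0.000223), 1.51 ± 0.41 in MI_soft (adjusted p = 0.0107), and 2.03 ± 0.41 in MI (adjusted p = 0.00103). Ccl2, the main monocyte attractant of the CC class, averaged 17.7 ± 7.74 CPM in MI_stiff, 10.6 ± 5.11 CPM in MI_soft, 13.1 ± 5.04 CPM in MI, and 4.39 ± 0.857 CPM in Sham (SD). It rose by 2.01 ± 0.43 in MI_stiff (adjusted p = 0.00263), 1.26 ± 0.42 in MI_soft (adjusted p = 0.0349) and 1.58 ± 0.42 in MI (adjusted p = 0.00783) on the log2 scale. The MI_soft call of Ccl2 was lost without MI_stiff 4, MI_soft 2, MI_soft 4, Sham 1, Sham 2, Sham 3 or Sham 4 (adjusted p between 0.0525 and 0.103).

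Ccl9, another Ccr1 ligand known from mouse, was nearly absent from Sham, with 4 counts over the 4 libraries. It had 7.12, 5.47, 7.18 and 14.2 CPM in MI_stiff, 1.79, 16.3, 2.78 and 17.2 CPM in MI_soft, 7.499, 0.251, 0 and 0 CPM in MI and 0, 0.189, 0 and 0.159 CPM in Sham. The MI_stiff and MI_soft libraries were all well above Sham. In MI only replicate 1 was, and MI 2, MI 3 and MI 4 had 3, 0 and 0 counts. The log2 difference of Ccl9 from Sham was 6.52 ± 1.53 in MI_stiff (adjusted p = 0.00559), 6.68 ± 1.54 in MI_soft (adjusted p = 0.00406), and 4.45 ± 1.52 in MI (adjusted p = 0.0297). Without MI 1 the MI call was lost (adjusted p = 0.982). The MI call was also lost without Sham 1, Sham 3 or Sham 4, with adjusted p of at least 0.0545. Limma-voom with or without library quality weights, the replicate number as a block and TPM lost it too. Ccl22, which attracts regulatory T cells, rose in MI_stiff (4.31 ± 1.37, adjusted p = 0.0316) and MI_soft (4.02 ± 1.36, adjusted p = 0.0373), with 1.61 to 5.71 CPM in MI_stiff, 0.523 to 7.27 CPM in MI_soft, 0 to 3.69 CPM in MI, and 0 to 0.317 CPM in Sham. Those calls were lost in MI_stiff without MI_stiff 4, Sham 1, Sham 2 or Sham 3 (adjusted p between 0.0681 and 0.0903) and in MI_soft without MI_soft 4, Sham 1, Sham 2, Sham 3 or Sham 4 (adjusted p between 0.0558 and 0.166). Ccl27, a Ccr10 ligand best known from skin, rose in MI_soft (2.11 ± 0.69, adjusted p = 0.0318) and MI (1.89 ± 0.69, adjusted p = 0.0402) at levels of 0.141 to 1.23 CPM in MI_stiff, 0.836 to 2.28 CPM in MI_soft, 0.838 to 1.73 CPM in MI, and 0.284 to 0.475 CPM in Sham. Ccl27 overlaps Il11ra1 in the reference annotation, and its MI_soft call was lost without MI_soft 2, MI_soft 3, Sham 1, Sham 2, Sham 3 or Sham 4 (adjusted p between 0.0605 and 0.0958). In MI the call was lost without any of 11 single libraries, 4 of them Sham (adjusted p between 0.0509 and 0.0981).

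The remaining CC chemokines, Ccl3, Ccl5, Ccl12 and Ccl24, were called in no comparison with Sham when all libraries were used. Ccl5, which attracts T cells and monocytes, had 14.2, 1.45, 7.95 and 1.21 CPM in MI_stiff, 10.9, 12.2, 18.4 and 36.1 CPM in MI_soft, 10.3, 1.34, 1.03 and 3.28 CPM in MI and 7.62, 8.14, 10.5 and 11.6 CPM in Sham. The MI_soft libraries were all above the 4 MI libraries, and MI_stiff and Sham overlapped with both. The log2 difference of Ccl5 from Sham was -0.61 ± 0.72 in MI_stiff (adjusted p = 0.6), 1.04 ± 0.72 in MI_soft (adjusted p = 0.296), and -1.22 ± 0.73 in MI (adjusted p = 0.198). Without MI 1 it was -2.37 ± 0.75 in MI, called lower (adjusted p = 0.0184), and Ccl3, with 3 counts over MI 2, MI 3 and MI 4, was also called lower in MI (adjusted p = 0.0103).

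**Figure D2:**
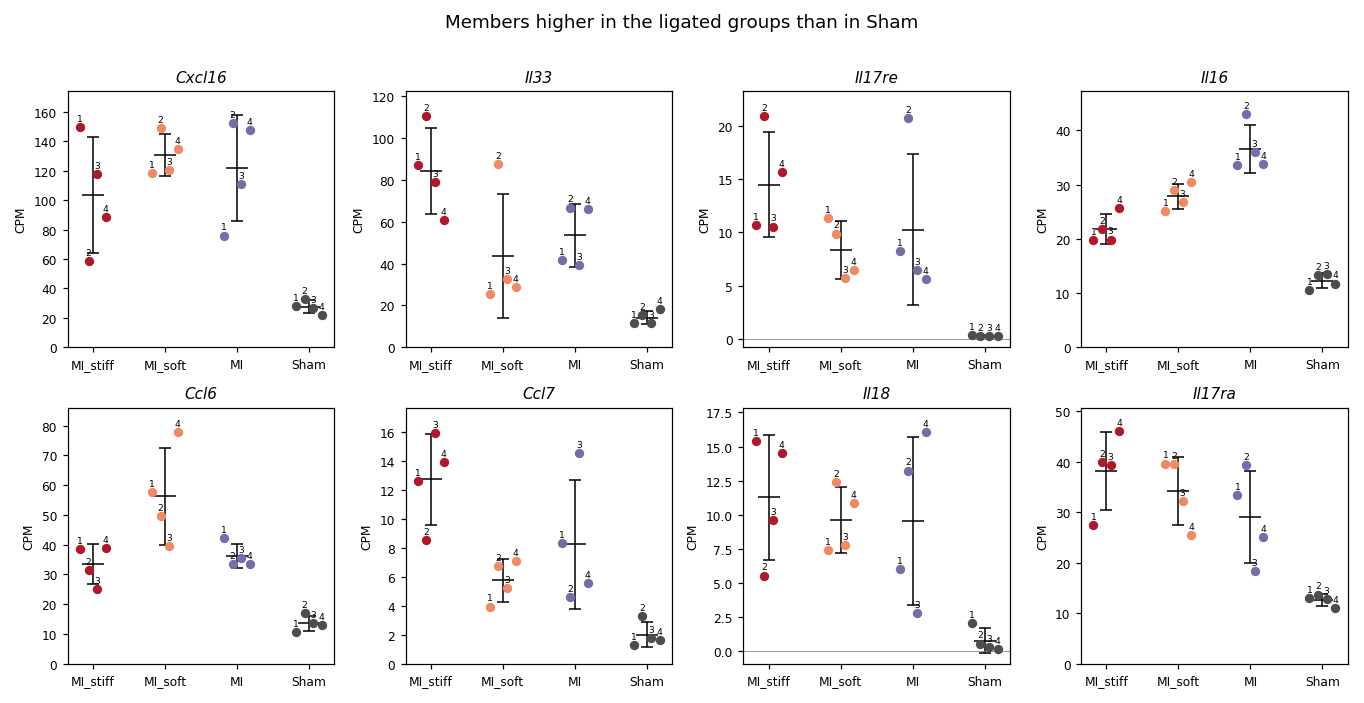
Level in CPM of 8 members in each library (numbered points), with the mean and SD of the 4 libraries of a group (bars). For these members every ligated library lies above every Sham library. Il17re is under 1 CPM in Sham and between 5 and 21 CPM in the ligated groups, through which alone it reached the minimum level of a member.

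Of the 8 CXC and CX3C chemokines, 2 rose and 1 fell in MI_stiff, 3 rose and 1 fell in MI_soft and 2 rose and 1 fell in MI. These are 37.5%, 50% and 37.5% called, of which the MI share is near the 36.6% of all tested genes. Cxcl16, a membrane-bound ligand of Cxcr6 that also acts as a scavenger receptor, had 150.1, 58.3, 118 and 88.5 CPM in MI_stiff, 118, 149, 121 and 135 CPM in MI_soft, 75.9, 153, 111 and 148 CPM in MI and 27.8, 32.9, 26.6 and 22.1 CPM in Sham. The lowest ligated library exceeded the highest Sham library. Cxcl16 overlaps Zmynd15 in the reference annotation. Its log2 difference from Sham was 1.92 ± 0.27 in MI_stiff (adjusted p = 9.33e-05), 2.26 ± 0.28 in MI_soft (adjusted p = 1.67e-05), and 2.15 ± 0.28 in MI (adjusted p = 1.83e-05), and these calls were kept under every alternative run. Cxcl13, which draws B cells through Cxcr5, had 48.6, 56.1, 50.7 and 66.7 CPM in MI_stiff, 34.7, 186, 35.02 and 138 CPM in MI_soft, 38.4, 10.9, 3.94 and 20.3 CPM in MI and 2.02, 6.43, 3.65 and 3.72 CPM in Sham. All MI_stiff and MI_soft libraries were above Sham, and MI 3 lay within the Sham range. The log2 difference of Cxcl13 from Sham was 3.82 ± 0.65 in MI_stiff (adjusted p = 0.000455), 4.64 ± 0.67 in MI_soft (adjusted p = 8.57e-05), and 2.23 ± 0.62 in MI (adjusted p = 0.00959). In MI it was 1.53 ± 0.58 without MI 1 (adjusted p = 0.0441), and the MI call was lost by limma-voom with or without library quality weights (adjusted p up to 0.103). Its receptor gene Cxcr5 had 46 counts over the MI_stiff libraries, 81 over MI_soft, 80 over MI and 2 over Sham. The ratio of summed, scaled counts to Sham was 20.6 in MI_stiff (95% interval 5.39 to 175), 37.0 in MI_soft (9.9 to 310) and 39.3 in MI (10.5 to 330), intervals that cover counting error only. MI 3 held most of the MI counts of Cxcr5, at 6.85 CPM, and without it the MI call was lost (adjusted p = 0.296). That call was also lost by limma-voom with or without library quality weights, with the replicate number as a block and on TPM. The MI_soft call was lost without Sham 1, Sham 2, Sham 3 or Sham 4 (adjusted p between 0.0512 and 0.0707), and Cxcr5 overlaps Bcl9l in the reference annotation.

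Cxcl9, Cxcl10 and Cxcl11 are the interferon-induced ligands of Cxcr3, a receptor of activated T cells. Cxcl10 rose in MI_soft (2.21 ± 0.67, adjusted p = 0.0217), with 7.02, 4.26, 3.37 and 27.1 CPM in MI_soft and 1.399, 2.65, 1.94 and 3.01 CPM in Sham. MI_soft 4 was the highest, and without it the adjusted p was 0.166. The call was also lost without Sham 1 or Sham 3. Cxcl11 moved the other way and fell in MI (-2.17 ± 0.55, adjusted p = 0.00593), to 2.09, 1.59, 7.51 and 2.28 CPM, against 15.7, 8.89, 18.6 and 16.9 CPM in Sham. Cxcl10 and Cxcl11 both overlap Art3 in the reference annotation. Cxcl9 was called in no comparison and ranged over 6.19 to 12.4 CPM in MI_stiff, 8.59 to 57.3 CPM in MI_soft, 9.63 to 20.5 CPM in MI, and 11.6 to 14.9 CPM in Sham, with MI_soft 4 at 57.3 CPM above all other libraries. Cxcr3 averaged 2.51 ± 1.998 CPM in MI_stiff, 8.32 ± 2.53 CPM in MI_soft, 2.06 ± 2.296 CPM in MI, and 2.13 ± 0.537 CPM in Sham. All 4 of its MI_soft libraries lay above all 4 Sham libraries. The MI_soft difference from Sham of 1.96 ± 0.84 was not called (adjusted p = 0.0943). The 10 T and NK cell markers with values, of 11 listed, summed to 20.19 to 60.98 CPM in MI_stiff, 79.63 to 206.6 CPM in MI_soft, 15.67 to 129.4 CPM in MI and 27.91 to 35.9 CPM in Sham. This sum was highest in MI_soft 4 and, within MI, in MI 1. The 6 B and plasma cell markers summed to 3.458 to 6.966 CPM in MI_stiff, 40.15 to 331.4 CPM in MI_soft, 2.681 to 24.1 CPM in MI and 1.322 to 5.108 CPM in Sham. No marker of either list was at 0 in every library, and the part of lymphocytes in the levels of Cxcl13, Ccl5, Cxcr3 and Cxcr5 was not tested.

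**Figure D3:**
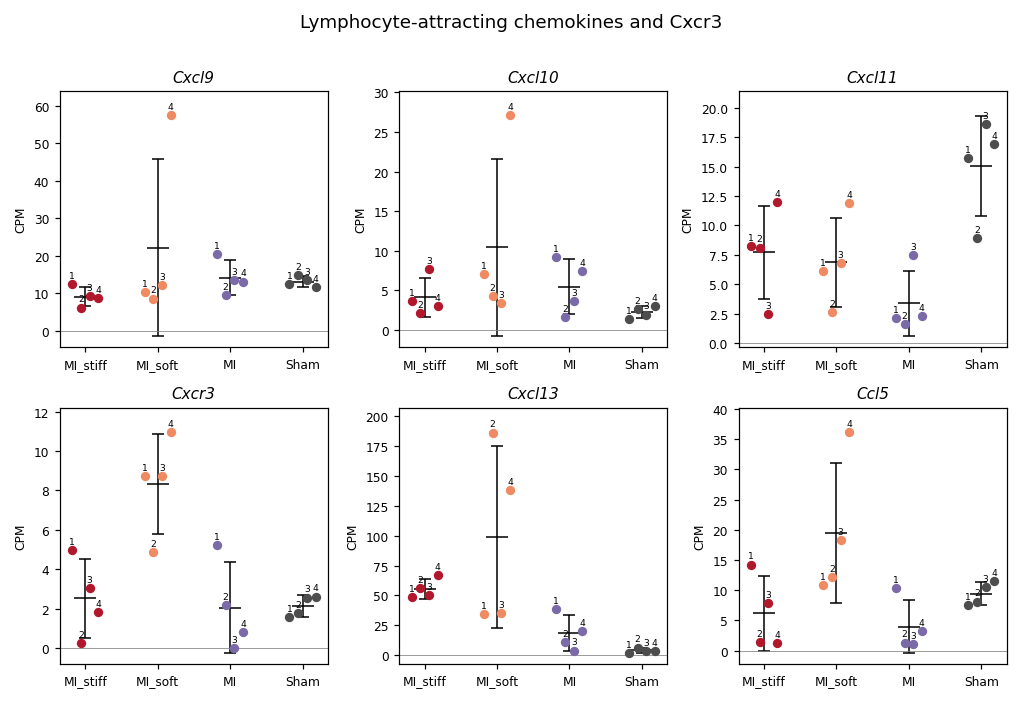
Level in CPM of chemokines that attract lymphocytes and of Cxcr3 in each library (numbered points), with the mean and SD of each group (bars, n = 4). MI_soft 4 holds the highest Cxcl9, Cxcl10, Ccl5 and Cxcr3 levels, Cxcl13 is high in all MI_stiff and MI_soft libraries, and Cxcl11 is mostly below Sham.

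Cxcl12, the Cxcr4 ligand that retains and recruits progenitor and immune cells, differed in MI_soft. It had 206, 219, 188 and 176 CPM in MI_stiff, 63.7, 136, 70.8 and 65.7 CPM in MI_soft, 149, 149, 236 and 155 CPM in MI and 169.7, 160, 165 and 166 CPM in Sham. The MI_soft libraries lay below every library of the other 3 groups, and MI_soft 2 was the nearest to them. Cxcl12 fell in MI_soft against Sham (log2 difference -0.97 ± 0.23, adjusted p = 0.00561), while the difference from Sham was 0.26 ± 0.23 in MI_stiff (adjusted p = 0.478) and 0.06 ± 0.23 in MI (adjusted p = 0.858). In the deposited TPM the order differed: Cxcl12 had 71.6, 160.4, 149 and 143 TPM in MI_stiff, 88.8, 88.1, 55.9 and 15.6 TPM in MI_soft, 274, 39.9, 68.9 and 45.5 TPM in MI and 74.2, 51.7, 64.2 and 86.95 TPM in Sham. The MI_soft call against Sham was not made on TPM with limma (adjusted p up to 0.639). Cx3cl1, the membrane-bound ligand of Cx3cr1 on endothelium, fell in MI_stiff (-1.14 ± 0.31, adjusted p = 0.0138), with 13.3 to 27.8 CPM in MI_stiff, 21.2 to 38.5 CPM in MI_soft, 18.1 to 54.6 CPM in MI, and 38.9 to 55.2 CPM in Sham. That call was also lost on TPM (adjusted p up to 0.165). Cxcl1, a neutrophil attractant, was under 2 CPM on average in every group, and the 8 neutrophil markers summed to at most 23.4 CPM in any library.

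Of the 8 chemokine receptors, 1 rose in MI_stiff, 3 in MI_soft and 2 in MI, and none fell. These are 12.5%, 37.5% and 25% called. The MI_stiff and MI shares are below the 21.2% and 36.6% of all tested genes. Ccr1, a receptor of myeloid cells, averaged 11.7 ± 3.42 CPM in MI_stiff, 8.91 ± 2.43 CPM in MI_soft, 7.65 ± 3.65 CPM in MI, and 3.46 ± 0.353 CPM in Sham. The increase was 1.76 ± 0.38 in MI_stiff (adjusted p = 0.00302), 1.36 ± 0.38 in MI_soft (adjusted p = 0.0127) and 1.15 ± 0.38 in MI (adjusted p = 0.0239), on the log2 scale. The MI call was lost without MI 1, MI 3, Sham 3 or Sham 4 (adjusted p between 0.0549 and 0.08). It was also lost by limma-voom with or without library quality weights, in a fit of only the 2 groups and on TPM (adjusted p up to 0.287). Ccr7, which guides T cells and dendritic cells to lymph nodes, rose in MI_soft (2.87 ± 0.81, adjusted p = 0.0148) at 1.79, 1.14, 4.69 and 9.03 CPM, against 0.466, 0.757, 0.155 and 0.872 CPM in Sham. This call was lost without MI_soft 4 (adjusted p = 0.0607). Cxcr4, the most abundant of these receptors per length, averaged 40.1 ± 8.06 CPM in MI_stiff, 27.2 ± 12.1 CPM in MI_soft, 27.5 ± 8.46 CPM in MI, and 25.96 ± 5.09 CPM in Sham and was called in no comparison. Cx3cr1, Cxcr6 and Ccr10 were under 3 CPM on average in every group and were not called when all libraries were used. Without MI 1, Ccr10 (-2.83 ± 0.82, adjusted p = 0.0115) and Cxcr6, with 1 count over MI 2, MI 3 and MI 4 (adjusted p = 0.0123), were called lower in MI against Sham. The Cxcl16 receptor gene Cxcr6 thus stayed near the minimum, with 0.269 to 0.842 CPM in MI_stiff, 0.919 to 2.17 CPM in MI_soft, 0 to 1.17 CPM in MI, and 0.233 to 0.777 CPM in Sham.

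Of the 9 members of the IL-1 family, 6 rose in MI_stiff, 4 in MI_soft and 5 in MI against Sham, and none fell (66.7%, 44.4% and 55.6% called). The ligand Il1b averaged 4.65 ± 2.18 CPM in MI_stiff, 4.87 ± 1.82 CPM in MI_soft, 4.55 ± 3.85 CPM in MI, and 0.832 ± 0.255 CPM in Sham. On the log2 scale it rose by 2.48 ± 0.75 in MI_stiff (adjusted p = 0.0254), 2.54 ± 0.75 in MI_soft (adjusted p = 0.0192) and 2.45 ± 0.75 in MI (adjusted p = 0.0171). The MI_stiff call was lost without MI_stiff 1, MI_stiff 3, Sham 1, Sham 3 or Sham 4 (adjusted p between 0.0541 and 0.0751). It was lost in MI_soft without Sham 1 or Sham 3 (adjusted p between 0.0574 and 0.0598) and in MI without MI 1 or Sham 1 (adjusted p between 0.0507 and 0.0633). By limma-voom all 3 calls were lost. The MI call was further lost with library quality weights, in a fit of only the 2 groups, with the replicate number as a block and on TPM (adjusted p up to 0.833). Without MI 1 the MI difference of Il1b was 1.82 ± 0.76. Il18, whose product drives interferon gamma release, had 15.4, 5.55, 9.64 and 14.5 CPM in MI_stiff, 7.396, 12.4, 7.798 and 10.9 CPM in MI_soft, 6.02, 13.2, 2.82 and 16.04 CPM in MI and 2.099, 0.568, 0.311 and 0.159 CPM in Sham. Every ligated library was above every Sham library, with Sham 1 nearest. Il18 overlaps Bco2 and Tex12 in the reference annotation. Its log2 difference from Sham was 3.82 ± 0.67 in MI_stiff (adjusted p = 0.000575), 3.59 ± 0.66 in MI_soft (adjusted p = 0.000776), and 3.58 ± 0.66 in MI (adjusted p = 0.000539). Il33, an alarmin of stromal cells that signals through Il1rl1, had 87.2, 111, 78.8 and 60.7 CPM in MI_stiff, 25.3, 87.7, 32.8 and 28.8 CPM in MI_soft, 41.6, 66.8, 39.4 and 66.1 CPM in MI and 11.5, 15.5, 11.3 and 18.1 CPM in Sham. The groups did not overlap with Sham, and the log2 difference of Il33 from Sham was 2.58 ± 0.36 in MI_stiff (adjusted p = 8.86e-05), 1.63 ± 0.35 in MI_soft (adjusted p = 0.00268), and 1.92 ± 0.36 in MI (adjusted p = 0.000539). The receptor gene Il1rl1 averaged 4.47 ± 1.86 CPM in MI_stiff, 2.24 ± 1.29 CPM in MI_soft, 2.25 ± 1.995 CPM in MI, and 0.964 ± 0.0881 CPM in Sham and was not called, and neither were Il1r1 and Il1rap, the chains of the IL-1 receptor.

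Of the 3 inhibitors of the family, Il1rn was called in all 3 comparisons with Sham, Il1r2 in MI_stiff and MI, and Il18bp in MI_stiff. Il1rn encodes the IL-1 receptor antagonist, which blocks the receptor without signalling, and overlaps Il36b in the reference annotation. It had 142, 10.8, 114 and 122 CPM in MI_stiff, 15.2, 36.2, 13.8 and 20.6 CPM in MI_soft, 11.99, 2.51, 9.29 and 4.28 CPM in MI and 1.09, 0.851, 1.17 and 0.792 CPM in Sham. Sham libraries were all near 1 CPM and every ligated library was above them; 3 MI_stiff libraries were far above all others, while MI_stiff 2 lay within the range of MI. The log2 difference of Il1rn from Sham was 6.63 ± 0.73 in MI_stiff (adjusted p = 9.61e-06), 4.44 ± 0.68 in MI_soft (adjusted p = 0.000157), and 2.84 ± 0.67 in MI (adjusted p = 0.00333). The MI_soft and MI calls were kept when any single library was left out and lost by limma-voom (adjusted p = 0.0521 in MI_soft and 0.233 in MI). Il1r2, a decoy receptor for IL-1, rose in MI_stiff (2.95 ± 0.96, adjusted p = 0.0354) and MI (2.78 ± 0.96, adjusted p = 0.0305), with 1.196 to 4.34 CPM in MI_stiff, 0.837 to 2.26 CPM in MI_soft, 0.251 to 4.41 CPM in MI, and 0 to 0.544 CPM in Sham. The call was lost in MI_stiff without MI_stiff 2, MI_stiff 4, Sham 1, Sham 2, Sham 3 or Sham 4 (adjusted p between 0.059 and 0.0907) and in MI without MI 3, MI 4, Sham 1, Sham 2 or Sham 4 (adjusted p between 0.0505 and 0.0847). Both calls were also lost with the replicate number as a block, and the MI call by limma-voom and on TPM. Il18bp, which binds and neutralises IL-18, rose in MI_stiff (1.56 ± 0.47, adjusted p = 0.0246) with 18.8, 5.55, 22.4 and 23.9 CPM in MI_stiff and 5.75, 5.39, 6.83 and 5.94 CPM in Sham. MI_stiff 2 alone overlapped with Sham, and the call was lost without MI_stiff 1, MI_stiff 3, MI_stiff 4, Sham 1, Sham 2, Sham 3 or Sham 4 (adjusted p between 0.0509 and 0.0824).

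Il1rn and Il16 were the 2 members called between ligated groups. Cxcl12 had the smallest p-value in MI_soft against MI, without a call. Cxcl16 was an abundant chemokine called in all 3 comparisons with Sham. The promoters of these 4 members are shown. They are the 250 bases before the annotated start, 5′ to 3′, from RefSeq on assembly GRCr8, which is another build than that of the counts. Il1rn lies at chr3:27520072-27520321 (+ strand), Cxcl12 at chr4:152060531-152060780 (+ strand), Il16 at chr1:147116743-147116992 (- strand) and Cxcl16 at chr10:55669951-55670200 (- strand). They are printed in lower case, and the comparison made from them is of base composition only.
Il1rn: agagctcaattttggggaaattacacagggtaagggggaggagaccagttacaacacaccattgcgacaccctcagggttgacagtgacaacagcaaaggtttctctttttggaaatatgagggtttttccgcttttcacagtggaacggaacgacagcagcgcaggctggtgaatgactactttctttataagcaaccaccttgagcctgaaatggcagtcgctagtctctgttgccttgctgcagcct
Cxcl12: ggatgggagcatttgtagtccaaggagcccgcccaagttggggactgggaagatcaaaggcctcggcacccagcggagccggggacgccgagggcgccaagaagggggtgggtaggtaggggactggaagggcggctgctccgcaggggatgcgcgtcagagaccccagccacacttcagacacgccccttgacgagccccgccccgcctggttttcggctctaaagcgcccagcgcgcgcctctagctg
Il16: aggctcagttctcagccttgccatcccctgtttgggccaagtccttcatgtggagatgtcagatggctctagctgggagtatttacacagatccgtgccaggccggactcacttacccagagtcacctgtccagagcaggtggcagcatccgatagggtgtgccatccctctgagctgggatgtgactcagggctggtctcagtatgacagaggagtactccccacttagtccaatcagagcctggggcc
Cxcl16: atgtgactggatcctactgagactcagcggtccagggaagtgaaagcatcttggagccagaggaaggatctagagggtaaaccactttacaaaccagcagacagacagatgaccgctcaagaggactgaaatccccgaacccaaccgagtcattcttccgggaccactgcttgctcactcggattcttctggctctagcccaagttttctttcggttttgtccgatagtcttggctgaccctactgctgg
G or C made up 48.4% of the Il1rn promoter, 67.6% of Cxcl12, 56.8% of Il16 and 51.6% of Cxcl16. CpG pairs numbered 6 in Il1rn, 20 in Cxcl12, 3 in Il16 and 8 in Cxcl16. Promoters were found for 44 of the 58 members, with a median of 52.2% G or C and 4.5 CpG pairs, against 51.2% and 5 pairs over all 33469 rat promoters of that length. Cxcl12 was above both medians by the largest margin of the 4.

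Of the 4 members of the IL-17 family, 2 rose in MI_stiff, 3 in MI_soft and 3 in MI (50%, 75% and 75% called). Il17re encodes the receptor chain for IL-17C on epithelial and other cells and pairs with Il17ra. It had 10.7, 20.9, 10.6 and 15.7 CPM in MI_stiff, 11.4, 9.89, 5.68 and 6.44 CPM in MI_soft, 8.24, 20.7, 6.47 and 5.65 CPM in MI and 0.389, 0.284, 0.311 and 0.317 CPM in Sham. No ligated library was below 5.65 CPM and no Sham library above 0.389 CPM. Its log2 difference from Sham was 5.43 ± 0.51 in MI_stiff (adjusted p = 2.42e-06), 4.64 ± 0.50 in MI_soft (adjusted p = 5.44e-06), and 4.94 ± 0.50 in MI (adjusted p = 2.09e-06), the smallest adjusted p among the members in each of these comparisons. Il17re reached the 0.5 CPM minimum only through the ligated groups, so this rank is a description. Il17ra, the chain shared by the IL-17 receptors, had 27.6, 39.97, 39.3 and 46.1 CPM in MI_stiff, 39.7, 39.5, 32.2 and 25.6 CPM in MI_soft, 33.4, 39.3, 18.4 and 25.2 CPM in MI and 12.98, 13.7, 12.8 and 11.1 CPM in Sham, again without overlap with Sham. On the log2 scale it rose by 1.596 ± 0.25 in MI_stiff (adjusted p = 0.000195), 1.44 ± 0.24 in MI_soft (adjusted p = 0.000373), and 1.201 ± 0.24 in MI (adjusted p = 0.0011). Il17rc, which with Il17ra binds IL-17A and IL-17F, rose in MI_soft (1.25 ± 0.37, adjusted p = 0.0183) and MI (1.097 ± 0.37, adjusted p = 0.027), at 20.1, 23.7, 20.7 and 56.8 CPM in MI_soft, 27.2, 45.3, 12.3 and 23.9 CPM in MI and 12.8, 11.5, 12.6 and 14.03 CPM in Sham. The calls were lost in MI_soft without MI_soft 4 (adjusted p = 0.0817) and in MI without MI 2, Sham 1, Sham 2 or Sham 3 (adjusted p between 0.059 and 0.136). The MI call of Il17rc was also lost by limma-voom and on TPM. The ligand genes Il17a, Il17c and Il17f had 0 counts in every library, and Il17b, at 0 to 0.612 CPM in MI_stiff, 0.299 to 1.59 CPM in MI_soft, 0 to 1.34 CPM in MI, and 0.0776 to 0.634 CPM in Sham, was not called.

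Among the 4 receptors of the gp130 family, none was called in MI_stiff or MI_soft, and 50% were called in MI, against 36.6% of all tested genes. In MI, Il6st, the shared chain gp130, fell (-1.76 ± 0.53, adjusted p = 0.0153), to 32.1, 5.61, 12.5 and 12.03 CPM in MI, against 63.7, 50.3, 38.8 and 58.6 CPM in Sham. The MI libraries were all below Sham, MI 1 being the nearest. Without MI 1 the difference was -2.45 ± 0.53 (adjusted p = 0.00159). The call was lost when MI 2, MI 3, MI 4 and MI_soft 4 were left out together (adjusted p = 0.329), a fit in which MI 1 stands for MI alone and is assumed to vary like the libraries of the other groups. Il11ra1, the IL-11 receptor of fibroblasts and other cells, had 57.6, 63.1, 60.7 and 84.96 CPM in MI_stiff, 106, 71.02, 78.1 and 125 CPM in MI_soft, 116, 145, 75.7 and 86.9 CPM in MI and 51.6, 60.5, 77.9 and 54.4 CPM in Sham. The groups overlapped. It rose in MI (0.79 ± 0.24, adjusted p = 0.0155), a call lost without MI 2 or Sham 1 (adjusted p between 0.0514 and 0.0677). Its differences from Sham in MI_stiff (0.12 ± 0.24, adjusted p = 0.76) and MI_soft (0.64 ± 0.24, adjusted p = 0.0571) were not called. Il6r averaged 23.4 ± 7.14 CPM in MI_stiff, 23.7 ± 10.4 CPM in MI_soft, 19 ± 6.85 CPM in MI, and 13.5 ± 3.401 CPM in Sham and was not called. The ligand genes Il6 and Il11 were below the minimum, with mean levels of 0.152 and 0.14 CPM.

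Of the 6 members around the common gamma chain, 2 rose in each comparison with Sham and none fell. This is 33.3% called, in MI near the 36.6% of all tested genes. Il15, which sustains T and NK cells, averaged 14.9 ± 4.03 CPM in MI_stiff, 14.1 ± 0.9396 CPM in MI_soft, 19.2 ± 12.4 CPM in MI, and 6.37 ± 2.295 CPM in Sham. Il15 rose by 1.23 ± 0.39 in MI_stiff (adjusted p = 0.0308), 1.15 ± 0.39 in MI_soft (adjusted p = 0.0375) and 1.59 ± 0.39 in MI (adjusted p = 0.00447). The calls were lost in MI_stiff without MI_stiff 1, MI_stiff 4, Sham 3 or Sham 4 (adjusted p between 0.059 and 0.102) and in MI_soft without MI_stiff 4, MI_soft 1, MI_soft 2, MI_soft 3, MI_soft 4, Sham 1, Sham 3 or Sham 4 (adjusted p between 0.052 and 0.117). The MI call was lost with MI 1 as the lone MI library (0.28, adjusted p = 0.654). Il4r, the IL-4 and IL-13 receptor chain, averaged 61.2 ± 3.595 CPM in MI_stiff, 62.97 ± 23.3 CPM in MI_soft, 55.8 ± 10.7 CPM in MI, and 37.3 ± 6.78 CPM in Sham. Il4r rose in MI_stiff (0.71 ± 0.23, adjusted p = 0.035) and MI_soft (0.75 ± 0.23, adjusted p = 0.0231). Those calls were lost in MI_stiff without MI_stiff 1, MI_stiff 2, MI_stiff 3, MI_stiff 4, Sham 1, Sham 2 or Sham 4 (adjusted p between 0.0566 and 0.101) and in MI_soft without MI_soft 4, Sham 1 or Sham 4 (adjusted p between 0.0652 and 0.0831). Il7, a lymphocyte survival factor, rose in MI (3.65 ± 0.99, adjusted p = 0.00834) with 0.799, 5.03, 1.22 and 2.73 CPM, against 0.233, 0.284, 0.155 and 0.0792 CPM in Sham. This call was likewise lost with MI 1 as the lone MI library (adjusted p = 0.268). Il2rg itself averaged 24.3 ± 3.403 CPM in MI_stiff, 22.7 ± 8.46 CPM in MI_soft, 20.1 ± 2.21 CPM in MI, and 18.9 ± 3.06 CPM in Sham and was called nowhere. The ligand genes Il4, Il13 and Il21 had 0 counts in every library.

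Of the 5 members of the IL-10 family, 3 rose in MI_stiff, 2 in MI_soft and 2 in MI. These are 60%, 40% and 40% called, of which the MI share is near the 36.6% of all tested genes. Il10, an anti-inflammatory cytokine of macrophages and T cells, was scarce. It had 5.97, 0.241, 3.66 and 0.604 CPM in MI_stiff, 0.672, 0.913, 0.198 and 0.418 CPM in MI_soft, 0.246, 0, 0 and 0 CPM in MI and 0, 0, 0 and 0.0792 CPM in Sham. Counts summed to 142 over the MI_stiff libraries, 29 over MI_soft, 4 over MI and 1 over Sham. MI_stiff 1 and MI_stiff 3 held most of the MI_stiff counts, all MI_soft and MI_stiff libraries were above all Sham libraries, and MI 1 was the only MI library with a count. The ratio of summed, scaled counts to Sham was 127 in MI_stiff (95% interval 22.5 to 5060), 26.5 in MI_soft (4.39 to 1080) and 3.93 in MI (0.389 to 193). Il10 was called in MI_stiff (adjusted p = 0.00332) and MI_soft (adjusted p = 0.0367), the MI_soft call being lost without MI_soft 1, MI_soft 2, Sham 1, Sham 2 or Sham 3 (adjusted p between 0.0606 and 0.0969). Its receptor chain Il10ra averaged 4.65 ± 2.297 CPM in MI_stiff, 5.29 ± 1.48 CPM in MI_soft, 1.86 ± 2.31 CPM in MI, and 1.595 ± 0.348 CPM in Sham and was not called. Il10rb, the chain shared by several IL-10 family receptors, rose in MI_stiff (0.65 ± 0.19, adjusted p = 0.0238) and MI (0.63 ± 0.19, adjusted p = 0.0183) at 27.6 ± 2.604 CPM in MI_stiff, 25.03 ± 2.28 CPM in MI_soft, 27.2 ± 5.58 CPM in MI, and 17.6 ± 2.75 CPM in Sham. Those calls were lost in MI_stiff without MI_stiff 2, MI_stiff 4, Sham 1, Sham 3 or Sham 4 (adjusted p between 0.0502 and 0.0897) and in MI without MI 2, Sham 1 or Sham 4 (adjusted p between 0.0595 and 0.0707). Il20rb, a chain of the IL-20 receptor known from epithelium, had 0.306, 2.57, 2.46 and 2.82 CPM in MI_stiff, 1.57, 3.12, 1.72 and 3.51 CPM in MI_soft, 3.44, 1.84, 3.38 and 2.64 CPM in MI and 0.777, 0.0946, 0.0776 and 0.238 CPM in Sham. MI_stiff 1 fell within the Sham range and all other ligated libraries were above it. The log2 difference of Il20rb from Sham was 2.73 ± 0.76 in MI_stiff (adjusted p = 0.0164), 3.002 ± 0.77 in MI_soft (adjusted p = 0.00801), and 3.19 ± 0.77 in MI (adjusted p = 0.00396). The MI_stiff call of Il20rb was lost without Sham 2, Sham 3 or Sham 4 (adjusted p between 0.0503 and 0.0565).

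Of the other 4 names, Il16, Il34 and Il3ra rose in all 3 comparisons (75% called in each), and Il4i1, an amino acid oxidase rather than a cytokine, was not called. Il16, a ligand of Cd4 that attracts T cells, had 19.8, 21.8, 19.8 and 25.6 CPM in MI_stiff, 25.03, 28.97, 26.8 and 30.4 CPM in MI_soft, 33.6, 42.98, 35.9 and 33.7 CPM in MI and 10.5, 13.2, 13.4 and 11.7 CPM in Sham. No ligated library overlapped with Sham, and the log2 difference from Sham was 0.83 ± 0.18 in MI_stiff (adjusted p = 0.00288), 1.18 ± 0.18 in MI_soft (adjusted p = 0.000133), and 1.58 ± 0.18 in MI (adjusted p = 5.98e-06). Il34, another ligand of the macrophage receptor Csf1r, had 16.8, 18.9, 17.7 and 19.01 CPM in MI_stiff, 21.5, 26.7, 14.1 and 27.3 CPM in MI_soft, 19.2, 47.7, 11.5 and 26.4 CPM in MI and 9.41, 5.298, 8.15 and 7.85 CPM in Sham. The ligated libraries were above Sham, with differences from it of 1.23 ± 0.34 in MI_stiff (adjusted p = 0.0163), 1.54 ± 0.35 in MI_soft (adjusted p = 0.00345), and 1.77 ± 0.35 in MI (adjusted p = 0.000892) on the log2 scale. The MI_stiff call of Il34 was lost without Sham 2 (adjusted p = 0.0523), and Il34 overlaps Rpl29l3 in the reference annotation. Il3ra, the IL-3 receptor chain of myeloid cells, had 12.4, 11.7, 9.78 and 11.9 CPM in MI_stiff, 7.77, 10.8, 9.78 and 27.7 CPM in MI_soft, 12.2, 37.1, 7.69 and 7.93 CPM in MI and 3.73, 0.851, 3.73 and 1.98 CPM in Sham. MI 2 was the highest, no ligated library overlapped with Sham, and the log2 difference from Sham was 2.14 ± 0.55 in MI_stiff (adjusted p = 0.0105), 2.43 ± 0.56 in MI_soft (adjusted p = 0.00394), and 2.64 ± 0.56 in MI (adjusted p = 0.00156).

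**Figure D4:**
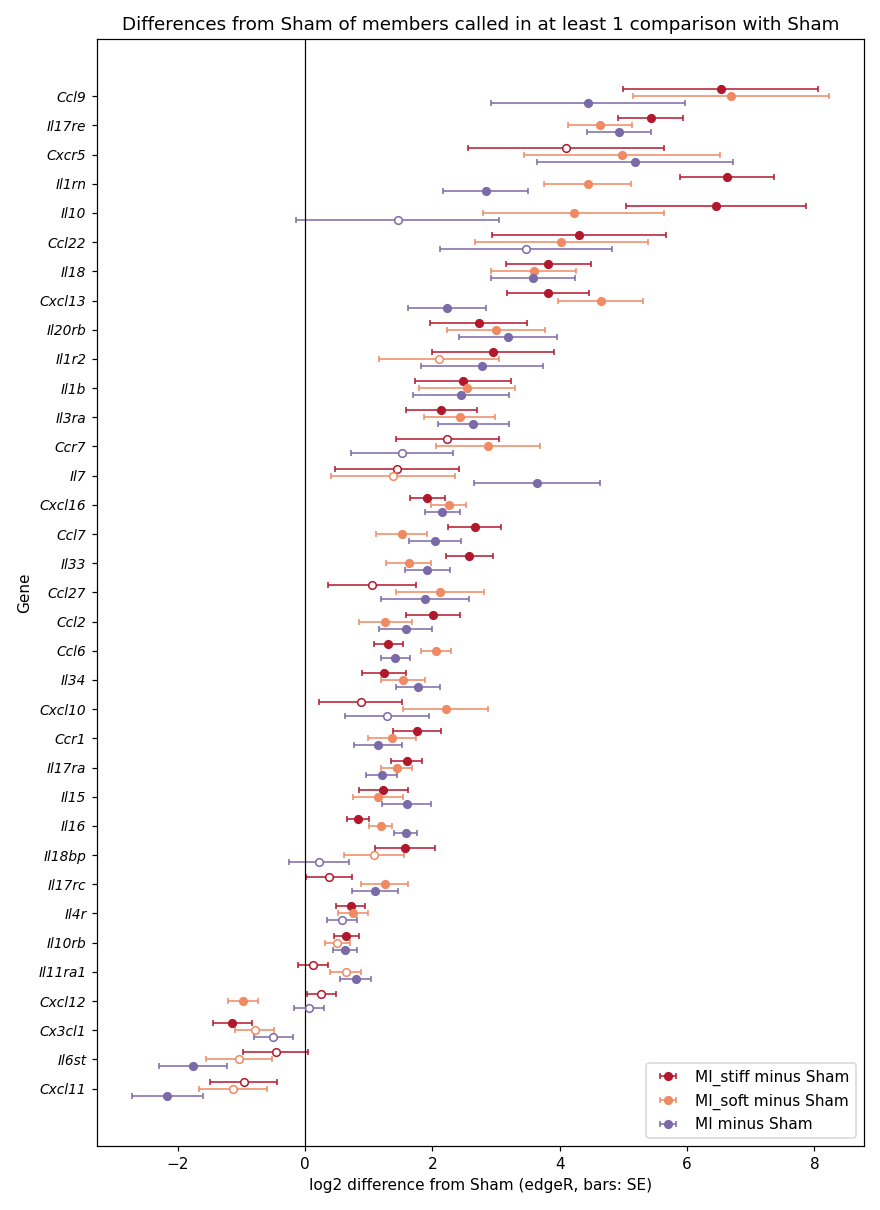
Fitted log2 difference from Sham (horizontal axis, points; bars are SE) of the 35 members called in at least 1 comparison with Sham, for MI_stiff, MI_soft and MI; filled points were called at adjusted p under 0.05. Most lie to the right of 0, Cx3cl1, Il6st and Cxcl11 lie to the left in all 3 comparisons, and Cxcl12 is called only in MI_soft.

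Against MI, for which no gel is named, few members were called. In MI_stiff against MI, 1 rose and 1 fell (3.45% of the members, against 1.19% of all tested genes). An unadjusted p under 0.05 was found for 11 members (17% of all tested genes). Il1rn rose by 3.79 ± 0.62 on the log2 scale (adjusted p = 0.0103), with 97.4 ± 58.9 CPM in MI_stiff and 7.02 ± 4.38 CPM in MI. Of the 4 MI_stiff libraries, 3 were above all MI libraries and MI_stiff 2 was not; without MI_stiff 2 the difference was 4.19 (adjusted p = 0.00023). The call was lost without MI 4 (adjusted p = 0.054), by limma-voom (adjusted p = 0.0555), with library quality weights (adjusted p = 0.175) and in a fit of only the 2 groups (adjusted p = 0.0622). With MI 1 as the lone MI library, whose spread is then taken from the other groups, the difference was 3.03 (adjusted p = 0.23). MI_stiff 2 was also the MI_stiff library with the lowest macrophage marker sum, 631.2 CPM, against 2054 to 2568 CPM in the other 3. Across groups the order differed: MI_soft libraries had sums of 1634 to 5213 CPM with 13.8 to 36.2 CPM of Il1rn. The highest sum was that of MI_soft 4, with 20.6 CPM of Il1rn. The part of macrophages in the level of Il1rn was not tested. In MI_stiff, Il16 fell (log2 difference -0.75 ± 0.18, adjusted p = 0.0462), with 21.8 ± 2.71 CPM in MI_stiff and 36.6 ± 4.41 CPM in MI. The groups did not overlap in CPM. The call was lost on leaving out 14 of the 16 libraries singly, that is all but MI_soft 4 and MI 1 (adjusted p between 0.0554 and 0.16). In all it was lost in 23 of 27 alternatives, among them limma-voom, RLE size factors, the replicate block and TPM (difference -0.46, adjusted p = 0.408). Il10, next by p-value, was not called (adjusted p = 0.0556), and its 4 counts in MI all came from MI 1. It was called without MI_soft 4 or MI 1 and by DESeq2 (adjusted p = 0.00669).

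In MI_soft against MI no member was called by edgeR (0.0264% of all tested genes were called). The edgeR unadjusted p was under 0.05 for 12 members (15.5% of all tested genes). DESeq2 called 3 of the 58 members and 2.58% of all tested genes. It gave an adjusted p to 30 of the members, and the 2.58% likewise counts genes without one. The smallest p-values were those of Cxcl12, Cxcl13 and Ccl5. Cxcl12 differed by -1.03 ± 0.23 (adjusted p = 0.0949) with 84.2 ± 35.0 CPM in MI_soft and 172 ± 42.4 CPM in MI. Its groups did not overlap in CPM, and on TPM the difference was -0.58 (adjusted p = 0.686). Cxcl13 differed by 2.41 ± 0.60 (adjusted p = 0.103) and Ccl5 by 2.26 ± 0.75 (adjusted p = 0.184). All 3 were called when MI 1 was left out, and Cxcl12 also without MI_soft 2. The 2 members called in MI_stiff against MI moved the same way in MI_soft without a call. Il1rn differed by 1.60 ± 0.57 (adjusted p = 0.213) and Il16 by -0.40 ± 0.18 (adjusted p = 0.294). Neither overlapped between MI_soft and MI in CPM, and Il1rn was called without MI 1 (1.99 ± 0.63, adjusted p = 0.0461).

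In MI_stiff against MI_soft no member was called by edgeR (0.0967% of all tested genes were called). For 10 members the edgeR unadjusted p was under 0.05 (14.3% of all tested genes). DESeq2 called 2 of the 58 members and 2.44% of all tested genes. It gave an adjusted p to 32 of the members, and the 2.44% likewise counts genes without one. Cxcl12 was higher in MI_stiff, with 197 ± 18.8 CPM, against 84.2 ± 35.0 CPM in MI_soft, and the groups did not overlap. Its difference of 1.23 ± 0.24 had an adjusted p of 0.0507. The adjusted p was under 0.05 without MI_soft 2 (0.00738), MI 1 or MI 3, by DESeq2 (0.00015) and by limma-voom (0.0226). On TPM it was 0.387. Il1rn differed by 2.18 ± 0.57 (adjusted p = 0.117, and 0.0161 without MI_stiff 2), with 97.4 ± 58.9 CPM in MI_stiff and 21.4 ± 10.3 CPM in MI_soft. Ccl6 differed by -0.75 ± 0.22 (adjusted p = 0.154), lower in all MI_stiff libraries than in any MI_soft library.

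**Figure D5:**
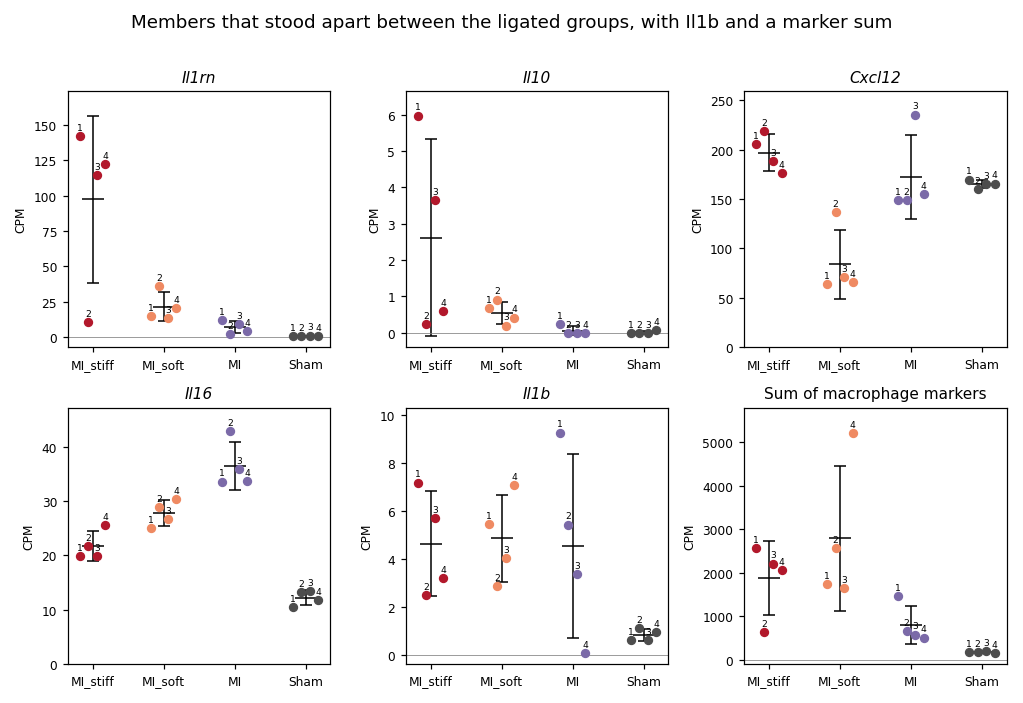
Level in CPM of Il1rn, Il10, Cxcl12, Il16 and Il1b and the summed CPM of the macrophage and monocyte markers in each library (numbered points), with the mean and SD of each group (bars, n = 4). MI_stiff 2 is low in Il1rn and in the marker sum, while MI_soft 4 has the highest marker sum with 20.6 CPM of Il1rn. MI_soft is low in Cxcl12. Il16 is lower in MI_stiff and in MI_soft than in MI without overlap, while Il1b overlaps among the ligated groups.

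The comparisons of the gels with MI depended on MI 1. Without it, 10 members were called in MI_stiff against MI and 12 in MI_soft against MI, while the share of all tested genes called became 10.9% and 13.1%. In MI_soft against MI, 11 rose and Cxcl12 fell (-1.11 ± 0.24, adjusted p = 0.00859). The 11 were Ccl3 (adjusted p = 0.00238), Ccl9 (adjusted p = 0.00253), Cxcl13, Cxcr6, Ccl5, Cx3cr1, Il10ra, Il13ra1, Cxcr3, Il1rn and Il10 (adjusted p up to 0.0492). In MI_stiff against MI, 9 rose and Il16 fell (-0.79 ± 0.19, adjusted p = 0.0171). Those that rose were Il1rn (4.20 ± 0.69, adjusted p = 0.00212), Ccl3 (adjusted p = 0.00275), Ccl9, Il10, Il13ra1, Cxcl13 (2.25 ± 0.60), Il6st, Cx3cr1 and Il10ra (adjusted p up to 0.0441). Several of these had 0 to 3 counts in MI 2, MI 3 and MI 4, so that no fold is given for them. Ccl3, for example, had 0.168, 0.0938 and 0 CPM there, against 3.44 CPM in MI 1 and 0.777, 1.14, 1.17 and 0.555 CPM in Sham. Against Sham, leaving out MI 1 gave 22 members that rose and 8 that fell in MI, in place of 25 and 2, while 41.4% of all tested genes were called. The calls of Ccl9, Ccr1 and Il1b were lost, and Ccl3, Ccl5, Ccr10, Cxcr6, Il13ra1 (adjusted p = 0.00641, with 0 counts in MI 2, MI 3 and MI 4) and Cx3cl1 (-0.85 ± 0.31, adjusted p = 0.0336) were called lower. With MI 1 as the lone MI library, 8 of the 27 calls in MI were lost, those of Ccl2, Ccl27, Cxcr5, Il10rb, Il15, Il1r2, Il6st and Il7. MI 1 had more genes with a count than MI 2, MI 3 and MI 4 and higher macrophage, T cell and B cell marker sums, and the part of either in these differences was not tested.

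Partners of the pathway outside the name rule were counted from 4 lists, whose shares stand against the 21.2%, 26.1% and 36.6% of all tested genes called in MI_stiff, MI_soft and MI. Of 15 tested genes of IL-1 and NF-kB signalling, 6 rose in MI_stiff, 6 in MI_soft and 9 in MI against Sham, a share called of 40%, 40% and 66.7%. Traf6 alone fell, in MI (-2.46 ± 0.74, adjusted p = 0.0147). Irak3, which dampens Myd88 signalling, rose by 2.45 ± 0.26 in MI_stiff (adjusted p = 5.38e-06), 1.98 ± 0.25 in MI_soft (adjusted p = 2.65e-05), and 2.65 ± 0.26 in MI (adjusted p = 1.32e-06) on the log2 scale. The adaptor Myd88 rose by 1.39 ± 0.20 in MI_stiff (adjusted p = 0.000123), 1.37 ± 0.20 in MI_soft (adjusted p = 0.000111), and 1.26 ± 0.20 in MI (adjusted p = 0.000157). Of 15 JAK and STAT genes and inhibitors, 2 rose and 2 fell in MI_stiff, 3 and 3 in MI_soft and 2 and 3 in MI. These are 26.7%, 40% and 33.3% of the list, near the share of all genes in MI_stiff and MI. Socs2, a feedback inhibitor of cytokine and growth hormone receptors, differed from Sham by -1.72 ± 0.43 in MI_stiff (adjusted p = 0.00826), -1.25 ± 0.42 in MI_soft (adjusted p = 0.0375), and -2.04 ± 0.43 in MI (adjusted p = 0.00157). Stat6, which acts downstream of Il4r, differed by 0.95 ± 0.24 in MI_stiff (adjusted p = 0.00793), 0.94 ± 0.24 in MI_soft (adjusted p = 0.00731), and 0.62 ± 0.23 in MI (adjusted p = 0.0474). Stat5b fell in MI_soft (-1.07 ± 0.35, adjusted p = 0.0323) and MI (-1.34 ± 0.35, adjusted p = 0.00734). The phosphatase Ptpn6 rose by 1.44 ± 0.45 in MI_stiff (adjusted p = 0.0282), 2.36 ± 0.46 in MI_soft (adjusted p = 0.00112), and 1.26 ± 0.45 in MI (adjusted p = 0.0352).

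Of 11 tested cytokines and receptors of other families, 5 rose in each comparison with Sham, and 1, Lifr, fell in MI (-2.25 ± 0.72, adjusted p = 0.0213), which makes 45.5%, 45.5% and 54.5% called. Tnfrsf1a, the main TNF receptor, rose by 1.76 ± 0.24 in MI_stiff (adjusted p = 5.24e-05), 1.54 ± 0.23 in MI_soft (adjusted p = 0.000135), and 1.93 ± 0.24 in MI (adjusted p = 1.25e-05). Tnfrsf1b, its inducible counterpart, rose by 1.57 ± 0.21 in MI_stiff, and Ifngr1, a chain of the interferon gamma receptor, by 1.44 ± 0.22 in MI_soft (adjusted p = 5.78e-05 and 0.000175). Csf1, the macrophage growth factor, rose by 1.59 ± 0.24 in MI (adjusted p = 7.88e-05). Each of these genes is given for the comparison where its p-value was among the smallest of the list, and the rises were not particular to that group. In MI, Tnfrsf1b rose by 0.82 ± 0.21 (adjusted p = 0.00607) and Ifngr1 by 1.43 ± 0.22 (adjusted p = 0.000119). Csf1 averaged 63.9 CPM in MI_soft, 72.4 CPM in MI and 24.1 CPM in Sham. Of 8 tested chemokine system genes with other names, 1 rose in MI_stiff, 4 in MI_soft and 3 in MI, or 12.5%, 50% and 37.5%, of which the MI share is near that of all genes and the MI_stiff share is below it. Ackr2, a decoy receptor that removes CC chemokines, rose by 1.4997 ± 0.27 in MI_stiff (adjusted p = 0.000759), 2.47 ± 0.28 in MI_soft (adjusted p = 7.84e-06), and 2.69 ± 0.28 in MI (adjusted p = 2.4e-06). It was the only gene of the 4 lists called between ligated groups, being lower in MI_stiff than in MI (-1.19 ± 0.26, adjusted p = 0.0387), with 7.19 ± 1.77 CPM in MI_stiff and 16.4 ± 1.66 CPM in MI. Pf4, a platelet and macrophage chemokine, rose in MI_soft (1.98 ± 0.55, adjusted p = 0.0132) and in MI (1.75 ± 0.55, adjusted p = 0.019), and Ackr3, a scavenger of Cxcl12, in MI (1.32 ± 0.28, adjusted p = 0.00143).

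Of the 61 names below the minimum, 20 had 0 counts in every library, among them Il4, Il5, Il9, Il13, Il17a, Il21 and Il22. Only Ccl11, Il18r1 and Ccl20 of the 61 passed the filter on low counts. The neutrophil chemokine gene Cxcl2 averaged 0.205 CPM, Ccl4 averaged 0.137 CPM and the neutrophil receptor gene Cxcr2 averaged 0.17 CPM over the 16 libraries.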

How the data were processed

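The authors deposited expected counts per gene, which need not be whole, in a table of 17085 genes and 16 libraries. The TPM values, scaled for transcript length and depth, were also deposited by the authors for the same genes. STAR 2.7.3a, RSEM 1.3.1 and build rn7 are named, per the submitters' processing notes; the annotation and whether counting used strand were not given in the sources used here, so reads of overlapping genes cannot be told apart (13 members overlap a protein-coding gene in RefSeq). The 13 members were Ccl27, Cxcl10, Cxcl11, Cxcl16, Ccr10, Cxcr5, Cxcr6, Il1rn, Il18, Il6r, Il11ra1, Il34 and Il4i1. Fractions occurred in 0.785% of the expected counts, and each value was rounded to a whole number. Groups came from the labels. Low counts were removed with edgeR's filterByExpr, libraries were scaled with TMM, and edgeR 4.0.16 (R 4.3.3) fitted all 16 libraries with 1 coefficient per group and no covariate. Robust quasi-likelihood p-values, 2-sided, were adjusted by Benjamini-Hochberg over 11376 genes and called under 0.05. A value after ± is an SD for levels and an SE for log2 differences.

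The members and lists were chosen with earlier results of these data known. Members are named with their tests where called in at least 1 of 6 comparisons or, where fewer than 3 were called, among the 3 with the smallest p. Values of every library are given for the 12 smallest p in MI against Sham, the 3 smallest in each other comparison and the 5 highest mean TPM. Others that are named without a call were chosen for their role. Alternatives were DESeq2 1.42.0, limma-voom (limma 3.58.1) with and without library quality weights, RLE size factors, other low-count filters, 2-group fits, a replicate block, left-out libraries, and limma on log2(TPM + 0.5) or log2(TPM + 0.1). Losses given beside a member are mainly those on leaving out 1 library, and the other alternatives lost further calls. The fitting script was tested on simulated data. Library totals bound the precision, and intervals cover counting error only.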

Additional observations from a re-analysis of the deposited data

Results flagged for a closer look

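Within a group of 4, a library was picked out where its gap to the nearest other library exceeded Dixon's critical share of the group's range on log2(CPM + 0.5). Of 144 groups examined, 12 met this, and chance alone picks about 1 in 20. In 2 of the 12, both of Il10, the other 3 libraries were at 0, so that any count meets it. MI_stiff 2 was low in Il1rn, at 10.8 CPM against 114 to 142 CPM in the other 3, and in Il18bp, at 5.55 CPM against 18.8 to 23.9 CPM. MI_stiff 1 was low in Il20rb (0.306 CPM against 2.46 to 2.82 CPM), and MI_stiff 4 was high in Il17rc (22.6 CPM against 14.1 to 14.7 CPM). MI_soft 4 was high in Il17rc (56.8 CPM against 20.1 to 23.6 CPM). MI_soft 2 was high in Cxcl12 (136 CPM against 63.7 to 70.8 CPM) and in Il10rb (28.4 CPM against 23.8 to 24 CPM). MI 1 was high in Ccl9 (7.5 CPM against 0 to 0.251 CPM) and in Il10 (0.246 CPM against 0 in the other 3), and MI 3 was high in Cxcl12 (235 CPM against 149 to 155 CPM). Sham 4 was high in Ccl27 (0.475 CPM against 0.284 to 0.311 CPM) and held the only Il10 count in Sham (0.0792 CPM against 0).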

How the results depend on the processing

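Against Sham, the number of members called stayed within 1.5 times of the value reported under every alternative run, and 15 of 25 called members in MI_stiff, 13 of 27 in MI_soft and 12 of 27 in MI kept their call under all of them. No called member changed direction. The share of all tested genes called was less stable: it was 45.6% in MI_stiff and 53.8% in MI_soft with library quality weights, and 41.8% in MI_stiff in a fit of only the 2 groups, against 21.2% and 26.1% as reported for MI_stiff and MI_soft. The member shares set beside shares of all tested genes above are those of the reported fit. The margin between them can differ under these settings. Between ligated groups, shares in parentheses are of all tested genes. Between ligated groups the counts moved. In MI_stiff against MI (2 members called), DESeq2 called 4 (5.12%), limma-voom 0 (0.756%), limma-voom with quality weights 0 (2.35%), RLE size factors 1 (1.08%), no filter on low counts 1 (0.575%), a fit of only the 2 groups 0 (0.12%), the libraries with few genes left out 1 (1.78%, with MI 1 as the lone MI library), and limma on log2(TPM + 0.5) or log2(TPM + 0.1) 1 each (0.809% and 0.563%). In MI_soft against MI (0 called), DESeq2 called 3 (2.58%) and limma-voom with quality weights 2 (3.59%). In MI_stiff against MI_soft (0 called), DESeq2 called 2 (2.44%), limma-voom 1 (0.149%), quality weights 5 (4.47%), RLE size factors 1 (0.105%), the filter of 1 CPM in 4 libraries 1 (0.117%) and the libraries with few genes left out 1 (2.01%). The causes were not tested. Leaving out 1 library at a time gave 0 to 10 members in MI_stiff against MI (10 without MI 1, where 10.9% of all tested genes were called, 4 without MI_soft 4, where 4.62% were, 0 without MI 4 and 1 without any other). It gave 0 to 12 in MI_soft against MI (12 without MI 1, with 13.1%, and 1 without MI_soft 2) and 0 to 2 in MI_stiff against MI_soft (2 without MI_soft 2 and 1 without MI_stiff 2, MI 1 or MI 3). With the replicate number as a block, 1 member was called in MI_stiff against MI, and 21, 22 and 22 in MI_stiff, MI_soft and MI against Sham. The numbers gave no sign of pairing: correlations of same-numbered libraries lay between -0.285 and 0.176, 5 of 24 were over 0.1, and 2 of 16 libraries correlated best with their own number.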
